A study of Rattus norvegicus with 22 samples.

Results

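The 9 genes of hepatic glucose production and of the control of glycolysis followed here in rat liver were Pck1, G6pc, Fbp1, Ppargc1a, Pklr, Slc2a2, Gys2, Pygl and Pfkfb1. They were taken as every non-control probe of the array whose gene name, ignoring case, was one of these 9 names, which gave 11 of the 30367 probes and 9 of the 26276 gene names. G6pc and Pfkfb1 had 2 probes each and the other genes 1. The samples were livers of 22 male Sprague-Dawley rats, 1 array per rat. All rats were kept in individual cages with free access to food, from an age below that of the reference rats. CD 3 (5 rats) and CD 14 (6 rats) received a semi-synthetic control diet for 3 or 14 months. BD 3 (5 rats) and BD 14 (6 rats) received for the same times the BASE-diet, in which 6% salmon fat replaced lard and to which 8% linden flower extract, 8% pumpkin puree and 1% of a pair of probiotic bacterial strains were added. By the diet composition in the paper, the BASE-diet also held more rapeseed oil and somewhat less wheat starch. The ingredients were given together, so that no difference can be ascribed to a single one of them, and the rats of the later time were both older and longer fed. Whether rats were fasted before sampling, and the hour of sampling, are not given in the sources used here.

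The liver releases glucose between meals and stores it after them. Pck1 and Fbp1 encode the enzymes that drive gluconeogenesis from oxaloacetate to fructose 6-phosphate past the steps that glycolysis cannot reverse, and G6pc encodes the phosphatase that frees glucose from glucose 6-phosphate. Glucagon and glucocorticoids raise the transcription of Pck1 and G6pc in fasting and insulin lowers it, with Ppargc1a as a coactivator. In the fed state Pklr, which encodes the liver and red cell pyruvate kinase, is raised by glucose and insulin. Pfkfb1 encodes the bifunctional enzyme whose product, fructose 2,6-bisphosphate, sets the balance between glycolysis and gluconeogenesis, Slc2a2 encodes the glucose transporter GLUT2, and Gys2 and Pygl encode liver glycogen synthase and liver glycogen phosphorylase.

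Each value below is the log2 ratio of the rat's own RNA, labelled with Cy5, to a common reference of liver RNA from healthy 10-week-old rats, labelled with Cy3, on the same array. A value of 0 is the reference level, 1 is a doubling, and the differences between groups are differences of these log2 ratios. Of the spots that were not controls, 52.4% to 93.6% per array were well above background in Cy5, the lowest on CD 3 replicate 4 and above 85% on 4 arrays (CD 3 replicate 1, BD 3 replicate 5, CD 14 replicates 1 and 3). All 14 hepatocyte markers of the list passed the background test on each of the 22 arrays. Arrays were spread over 5 slides, called A to E here, each scanned in 1 run. Slide C held all 6 BD 14 arrays with 2 of CD 14, slide B held 2 of BD 3 with 1 of CD 3, slide A held 3 of BD 3 with 3 of CD 14, slide D held 3 of CD 3, and slide E held 1 of CD 3 and 1 of CD 14. Nothing in the labels says more of how the rats of a group relate, and p-values measure the spread between these arrays.

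No gene of the 9 passed the test after adjustment over all probes tested. Of the 9, 8 could be tested, and Ppargc1a was too dim. With adjusted p under 0.05, 0 of 8 were called for BD 3 against CD 3, and the share of all probes called was 0%. The same held for BD 14 against CD 14 (0 of 8, background 0%), CD 14 against CD 3 (0 of 8, background 0%), BD 14 against BD 3 (0 of 8, background 0%) and the interaction of diet and time (0 of 8, background 0%). The moderated F test over the 4 groups called 0 of 8, against 0.0257% of all probes. At an unadjusted p under 0.05, Pklr and Pygl were lower in BD 3 than in CD 3 and none was higher (2 of 8, where 7.11% of all probes differed, 2.11% lower and 4.99% higher). Between BD 14 and CD 14 the count was 0 of 8 (4.6% of all probes, 3.79% higher and 0.803% lower). Pfkfb1 was lower in CD 14 than in CD 3 (1 of 8, against 10.1% of all probes, 6.85% higher and 3.29% lower), and Pklr was higher in BD 14 than in BD 3 (1 of 8, against 7.44% of all probes, 4.76% higher and 2.68% lower). For the interaction this count was 0 of 8 (4.8% of all probes), and for the F test it was 3 of 8, namely Pklr, Pygl and Pfkfb1 (10.5% of all probes). These comparisons share groups with one another, so a count in one is not independent of the next.

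Each of the 8 genes had overlapping groups in each of the 4 comparisons. Over all probes, the groups did not overlap for 0.515% (higher) and 0.242% (lower) in BD 3 against CD 3, for 0.653% and 0.113% in BD 14 against CD 14, for 0.283% and 0.232% in CD 14 against CD 3, and for 1.18% and 1.08% in BD 14 against BD 3. By sign, 4 genes were higher and 4 lower in BD 3 than in CD 3 (median difference -0.10, all probes 0.03), and 3 were higher and 5 lower in BD 14 than in CD 14 (median -0.04, all probes 0.05).

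**Figure D1:**
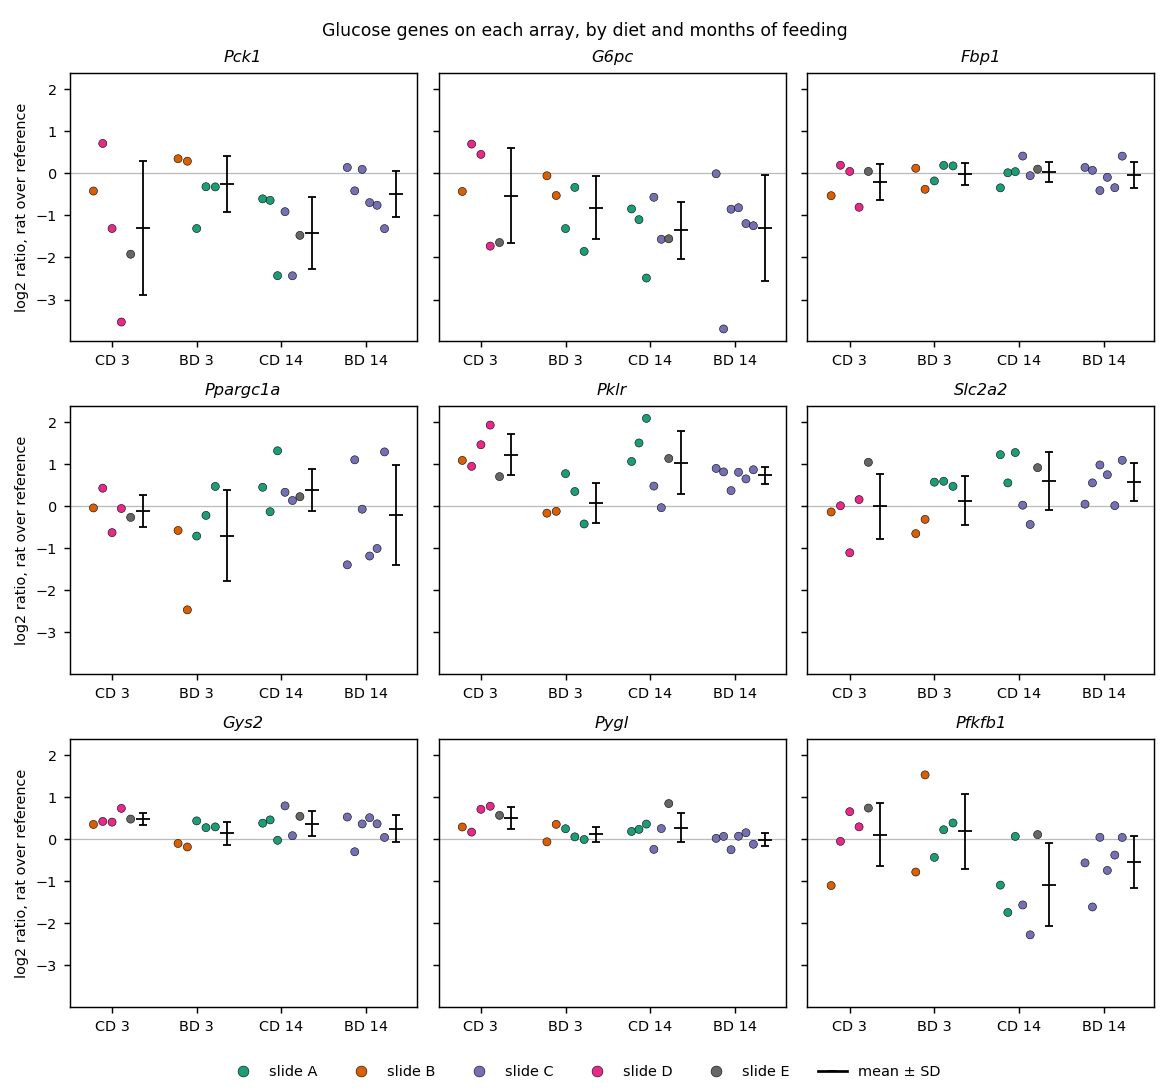
Log2 ratio of rat over reference RNA for the 9 genes (main probe) on each of the 22 arrays, by group on the horizontal axis, with points coloured by slide and the mean ± SD of each group drawn to the right of its points. The 5 BD 3 arrays of Pklr lie between -0.42 and 0.78 and the 5 CD 3 arrays between 0.71 and 1.93, while Fbp1 stays between -0.81 and 0.41 on all arrays and Pck1 reaches -3.54 on 1 array of CD 3.

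Pck1, phosphoenolpyruvate carboxykinase, carries out the first committed step of gluconeogenesis. Its promoter is shown because the gene is a textbook target of the cAMP pathway that glucagon engages: the 250 bases before the start, from RefSeq (rat build GRCr8, chr3:182348322-182348571, plus strand), hold the cAMP response element TTACGTCA, in capitals, 93 to 86 bases before the start. The array's probe for the gene, read from the deposited files (build rn4, chr3:164017597-164017656, plus strand), is given with it. Whether this stretch and those of the other probes are exon or UTR is not given in the sources used here.
Pck1 promoter: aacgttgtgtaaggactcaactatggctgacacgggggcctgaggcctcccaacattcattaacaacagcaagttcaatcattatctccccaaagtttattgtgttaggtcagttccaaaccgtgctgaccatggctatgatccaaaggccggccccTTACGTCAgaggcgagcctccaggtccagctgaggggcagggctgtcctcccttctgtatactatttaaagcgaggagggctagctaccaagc
Pck1 probe: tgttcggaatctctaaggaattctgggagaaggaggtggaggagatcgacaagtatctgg

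The log2 ratio of Pck1 was -0.42, 0.71, -1.31, -3.54 and -1.92 on the 5 arrays of CD 3, and 0.35, 0.29, -1.31, -0.32 and -0.32 on those of BD 3. In CD 14 it ran from -2.44 over a median of -1.19 to -0.61, and in BD 14 from -1.31 over -0.56 to 0.14. Both BASE-diet groups lay higher than their controls on average, with overlap at both times, and CD 3 was the widest group of all. The difference BD 3 minus CD 3 was 1.03 (SE 0.58, 95% interval -0.17 to 2.23, unadjusted p = 0.0876, adjusted p = 0.780 in limma's test), a 2.05-fold difference with 4 of 5 BD 3 arrays above the CD 3 mean. After 14 months it was 0.93 (SE 0.53, interval -0.17 to 2.02, unadjusted p = 0.0931, adjusted p = 0.952), a 1.90-fold difference, with 6 of 6 BD 14 arrays above the CD 14 mean. The group means in descending order were BD 3 (-0.26 ± 0.67, SD), BD 14 (-0.49 ± 0.55), CD 3 (-1.30 ± 1.60) and CD 14 (-1.42 ± 0.85), and no neighbours in this order were further apart than the larger of their SDs.

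A pair of CD 3 arrays of slide D decides much of the 3-month value for Pck1. Without CD 3 replicate 4, the array with the fewest spots above background, the difference was 0.47, and without CD 3 replicate 2 it was 1.53 with an unadjusted p of 0.00877. On these arrays the reference channel differed too: the Cy3 signal of Pck1, from RNA meant to be the same on each array, was 29293 on replicate 4 and 6304 on replicate 2, beside Cy5 signals of 2527 and 10319. The Cy5 channel taken alone gave 1.62, which passed an unadjusted p of 0.05 (adjusted p = 0.0795 in limma's test). Over the 22 arrays the SD of the log2 Cy3 signal of Pck1, relative to the array's median, was 0.52, where the median over all probes tested was 0.50. After 14 months, leaving out single arrays kept the Pck1 difference between 0.72 and 1.09, and within slide C alone (6 BD 14 and 2 CD 14 arrays) it was 1.18. With slide as a block, it was 0.84 (SE 0.92) after 3 months and 1.18 (SE 0.77) after 14 months, in the same direction at both times. All BD 14 arrays were on slide C, so the block value after 14 months is the slide C value and not a separate check.

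G6pc, the catalytic subunit of glucose 6-phosphatase, completes both gluconeogenesis and glycogen breakdown. Its promoter (RefSeq symbol G6pc1, GRCr8, chr10:86807409-86807658, plus strand) is shown as the counterpart of that of Pck1, with the forkhead-type element TGTTTTG 186 to 180 bases and the cAMP-type element TTACGTAA 174 to 167 bases before the start in capitals. Of its probes, the dimmer one (rn4, chr10:90402888-90402947, plus strand) is printed, and the main, brighter one lies downstream of it (rn4, chr10:90403940-90403999).
G6pc promoter: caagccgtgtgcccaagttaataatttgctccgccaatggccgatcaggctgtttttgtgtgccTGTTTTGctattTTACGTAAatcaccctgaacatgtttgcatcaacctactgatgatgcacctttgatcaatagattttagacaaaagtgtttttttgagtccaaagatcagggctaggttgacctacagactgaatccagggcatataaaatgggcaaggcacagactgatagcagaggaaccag
G6pc probe, dimmer: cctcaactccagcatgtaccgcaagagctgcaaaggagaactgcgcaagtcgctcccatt

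On its main probe, G6pc had log2 ratios of -0.43, 0.70, 0.45, -1.73 and -1.64 in CD 3 and of -0.06, -0.53, -1.31, -0.33 and -1.86 in BD 3. It ran from -2.49 over a median of -1.33 to -0.57 in CD 14 and from -3.70 over -1.02 to -0.01 in BD 14. All 6 rats of CD 14 were below the mean of CD 3, and otherwise the groups lay across one another. BD 3 minus CD 3 was -0.29 (SE 0.58, interval -1.50 to 0.93, adjusted p = 0.953), and BD 14 minus CD 14 was 0.05 (SE 0.53, interval -1.06 to 1.16, adjusted p = 0.997). CD 14 minus CD 3 was -0.82 (SE 0.56, unadjusted p = 0.156, adjusted p = 0.662), and with slide as a block it was -0.04. The diet differences turned sign with that block, to 0.23 (SE 0.93) at 3 months and -0.24 (SE 0.78) at 14 months. The intervals leave room for more than a doubling in either direction at 14 months, so these arrays do not show that the diet groups were alike in G6pc.

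BD 14 replicate 2 stood apart in G6pc. Its Cy5 signal was 2292, where the other 5 arrays of BD 14 lay between 16682 and 25624. The dimmer probe of the gene gave -3.46 on that array, the lowest of BD 14 as well. Without it the difference BD 14 minus CD 14 was 0.53 in place of 0.05. The dimmer probe moved with the main one over the 22 arrays (r = 0.91 for deviations from the group means, rho = 0.87), but its group differences were 0.08 for BD 3 minus CD 3 and 0.63 for BD 14 minus CD 14, the former on the other side of 0. Leaving out single arrays moved the former between -0.59 (without CD 3 replicate 4) and 0.63 (without CD 3 replicate 2), and the latter between 0.31 and 1.11. In the Cy5 channel alone they were 1.22 and -0.04.

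Fbp1, fructose 1,6-bisphosphatase, was the steadiest of the gluconeogenic enzymes. Its log2 ratios were -0.53, 0.19, 0.05, -0.81 and 0.05 in CD 3 and 0.12, -0.38, -0.18, 0.19 and 0.18 in BD 3. The 6 arrays of CD 14 ran from -0.34 over 0.03 to 0.41 and those of BD 14 from -0.41 over -0.01 to 0.41. The groups overlapped around the reference level, CD 3 reaching farthest below it and the 14-month groups farthest above it. BD 3 minus CD 3 was 0.20 (SE 0.21, interval -0.25 to 0.64, adjusted p = 0.900) and BD 14 minus CD 14 was -0.06 (SE 0.20, interval -0.47 to 0.34, adjusted p = 0.981), and both signs turned in the Cy5 channel alone (-0.27 and 0.04).

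Ppargc1a encodes the coactivator PGC-1alpha, which joins with transcription factors at the promoters of Pck1 and G6pc. Its own promoter (GRCr8, chr14:63634058-63634307, plus strand) holds the palindromic cAMP response element TGACGTCA, in capitals, 181 to 174 bases before the start, and is shown beside the others for that reason.
Ppargc1a promoter: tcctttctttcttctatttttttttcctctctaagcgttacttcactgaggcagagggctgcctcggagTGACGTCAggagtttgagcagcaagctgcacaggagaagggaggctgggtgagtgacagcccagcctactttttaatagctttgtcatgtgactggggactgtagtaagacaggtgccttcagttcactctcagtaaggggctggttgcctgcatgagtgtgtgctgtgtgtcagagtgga

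The probe of Ppargc1a was well above background on 13 of 22 arrays, which were 1 of the 5 CD 3 arrays, 4 of the 5 BD 3 arrays and 4 of the 6 arrays of each older group. Its Cy5 signals were between 4.42 and 39.3, and no group had it above background on every array, so it was not among the probes tested. The mean log2 ratios of the control groups, -0.11 ± 0.38 (SD) at 3 months and 0.39 ± 0.50 at 14 months, and of the BASE-diet groups, -0.70 ± 1.09 and -0.21 ± 1.18, mix measured values with signals at the limit of detection, and differences in Ppargc1a were not tested.

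Pklr gave the largest difference by diet among the 8 genes tested in the fit of the 4 groups. The enzyme closes glycolysis by making pyruvate, and the gene's promoter (GRCr8, chr2:176841014-176841263, plus strand) is shown for the carbohydrate response element through which glucose raises it, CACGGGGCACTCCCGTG, in capitals, 168 to 152 bases before the start. Its pattern, CACGNG and CNCGTG with NNNNN between them, where N is any base, was held by 0.0209% of the 33469 promoter windows of the same length in the table. The other elements were commoner: 0.75% for TTACGTCA, 1.59% for TGACGTCA, 0.108% for TTACGTAA and 5.46% for TGTTTTG. The forkhead element TGTTTAC (3.21% of windows) and CACGTG (5.59%) were also searched on both strands and have no match in the 9 windows. A palindrome such as CACGTG reads the same on both strands, and none of the matches overlaps another. The elements were chosen after the sequences were seen, and a match only states that these letters are present.
Pklr promoter: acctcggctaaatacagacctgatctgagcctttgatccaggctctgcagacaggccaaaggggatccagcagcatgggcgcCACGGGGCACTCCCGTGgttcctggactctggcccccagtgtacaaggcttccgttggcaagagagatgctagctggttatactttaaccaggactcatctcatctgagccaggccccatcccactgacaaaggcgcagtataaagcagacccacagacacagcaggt

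In CD 3 the log2 ratio of Pklr was 1.09, 0.95, 1.46, 1.93 and 0.71. In BD 3 it was -0.16, -0.12, 0.78, 0.35 and -0.42. All 5 control arrays were above the reference level, and 4 of 5 BASE-diet arrays lay below the lowest control, with BD 3 replicate 3 just above it. BD 3 minus CD 3 was -1.14 (SE 0.32, 95% interval -1.81 to -0.48), a 2.21-fold difference, with an unadjusted p of 0.00177 and an adjusted p of 0.400 in limma's test. The unadjusted p stayed between 0.000637 and 0.00724 when each of the 22 arrays was left out in turn, and the difference lay between -1.32 and -0.97. With slide as a block it was -1.11 (SE 0.38), and within slide B, the only slide with both groups, the 2 BD 3 arrays were below the single CD 3 array by a difference of -1.23. The lowest adjusted p that any of the fits gave for this difference was 0.113.

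After 14 months the 6 arrays of CD 14 ran in Pklr from -0.03 over 1.10 to 2.09, and the 6 of BD 14 from 0.37 over 0.81 to 0.90. BD 14 thus lay inside the range of its controls and was the narrowest group (SD 0.20 against 0.75). BD 14 minus CD 14 was -0.30 (SE 0.29, interval -0.91 to 0.30, unadjusted p = 0.310, adjusted p = 0.952). The direction of this value depended on the slide: the 3 CD 14 arrays of slide A had 1.07, 1.51 and 2.09, and the 2 of slide C 0.48 and -0.03. Within slide C, where all BD 14 arrays were, the difference was 0.51. The slide block gives this same value by design (0.51, SE 0.32, adjusted p = 0.744) and is not a separate check.

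Across time, BD 14 minus BD 3 was 0.65 in Pklr (SE 0.31, interval 0.01 to 1.29, unadjusted p = 0.0453, adjusted p = 0.659), and 6 of 6 BD 14 arrays were above the BD 3 mean. CD 14 minus CD 3 was -0.19 (SE 0.31, adjusted p = 0.897, 0.26 with slide as a block). The diet difference at 14 months exceeded that at 3 months by 0.84 (SE 0.43, interval -0.06 to 1.74, unadjusted p = 0.0663, adjusted p = 0.999), so that a change of the diet difference with time did not pass the test. With slide as a block the interaction was 1.62 (unadjusted p = 0.00467, adjusted p = 0.301) and BD 14 minus BD 3 was 1.89 (unadjusted p = 0.000427, adjusted p = 0.565), but no slide held both BD groups. The group means in descending order were CD 3 (1.23 ± 0.48), CD 14 (1.04 ± 0.75), BD 14 (0.74 ± 0.20) and BD 3 (0.09 ± 0.48), and the last step was larger than the SD of either group.

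Because Pklr also makes the pyruvate kinase of red cells, the red cell markers stand beside its values. Of 6 such markers measured, 6 were lower in BD 3 than in CD 3 (median difference -0.61, all probes 0.03, 2 at an unadjusted p under 0.05, where 2.11% of all probes were lower) and 6 were lower in BD 14 than in CD 14 (median -0.39, all probes 0.05, 0 at that threshold). In BD 14 against BD 3, where Pklr was higher by 0.65, 6 of the 6 were higher (median 0.71, all probes 0.07, 0 at that threshold). In CD 14 against CD 3 5 of the 6 were higher (median 0.42, all probes 0.03), where the Pklr difference was -0.19. Their mean log2 ratio ran from -1.88 to 0.06 in CD 3 and from -2.37 to -0.42 in BD 3, from -1.37 to 0.22 in CD 14 and from -1.75 to 0.20 in BD 14, and 5 of the 6 were well above background on every array. In whole tissue, fewer cells of a type and less RNA per cell cannot be told apart, and the part of red cell RNA in the Pklr values was not tested.

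**Figure D2:**
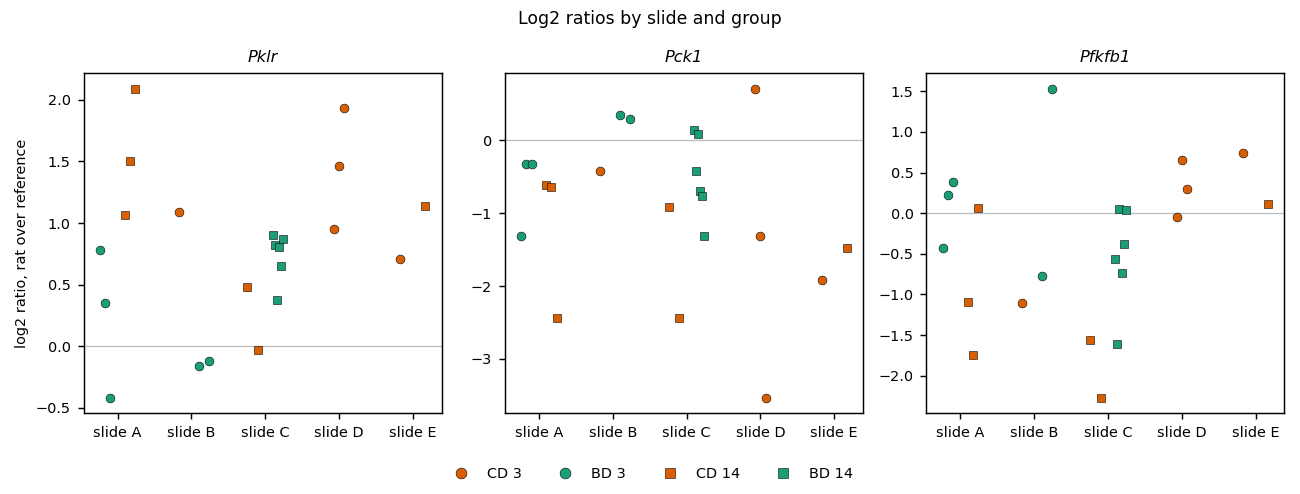
Log2 ratio of rat over reference RNA on each array for Pklr, Pck1 and Pfkfb1 (main probe), by slide on the horizontal axis, with circles for 3 months, squares for 14 months, orange for control diet and green for BASE-diet. In Pklr the CD 14 arrays of slide A (1.07 to 2.09) lie above the BD 14 arrays of slide C (0.37 to 0.90), while the CD 14 arrays of slide C (0.48 and -0.03) do not.

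Pfkfb1 had 2 probes, both well above background on all 22 arrays. On the main probe its log2 ratios were -1.10, -0.05, 0.66, 0.30 and 0.74 in CD 3 and -0.78, 1.53, -0.43, 0.23 and 0.39 in BD 3. In CD 14 they ran from -2.27 over a median of -1.33 to 0.11, and in BD 14 from -1.61 over -0.47 to 0.05. Both 14-month groups lay below both 3-month groups on average, with overlap throughout. CD 14 minus CD 3 was -1.19 (SE 0.47, interval -2.16 to -0.22), a 2.28-fold difference (unadjusted p = 0.0188, adjusted p = 0.386), and 1 of 6 CD 14 arrays was above the CD 3 mean. The other probe gave -1.36 (unadjusted p = 0.0487, 0.79 with slide as a block), and over the 22 arrays the probes moved together (r = 0.94 for deviations from the group means). BD 14 minus BD 3 was -0.72 (SE 0.47, adjusted p = 0.755), and its sign turned with slide as a block, to 0.22 (SE 0.76) on the main probe and 0.34 on the other, although no slide held both BD groups.

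By diet, BD 3 minus CD 3 was 0.08 in Pfkfb1 (SE 0.49, interval -0.94 to 1.09, adjusted p = 0.987) and BD 14 minus CD 14 was 0.55 (SE 0.45, interval -0.38 to 1.48, adjusted p = 0.952). These values moved with the slide. With slide as a block CD 14 minus CD 3 was -0.09 (SE 0.70) in place of -1.19, BD 3 minus CD 3 was 1.07 (SE 0.67) and BD 14 minus CD 14 was 1.38 (SE 0.56, unadjusted p = 0.0237, adjusted p = 0.557). On the other probe the block gave 2.05 (SE 0.81, unadjusted p = 0.0215, adjusted p = 0.379) for BD 3 minus CD 3 and 1.60 (SE 0.68, unadjusted p = 0.0301, adjusted p = 0.581) for BD 14 minus CD 14, so that the probes parted in size at 3 months and in sign in CD 14 minus CD 3. Within slide C alone BD 14 was higher by 1.38, which is the block value again because all BD 14 arrays were on that slide. The 2 CD 14 arrays of slide C, at -1.56 and -2.27, were among the 3 lowest of CD 14. The other CD 14 arrays were on slides A and E.

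Slc2a2, the transporter GLUT2 that lets glucose cross the hepatocyte membrane in both directions, had log2 ratios of -0.13, 0.01, -1.10, 0.16 and 1.05 in CD 3 and of -0.65, -0.31, 0.57, 0.60 and 0.47 in BD 3. CD 14 ran from -0.43 over 0.74 to 1.28 and BD 14 from 0.02 over 0.65 to 1.09. The older groups had the higher means under both diets, and the diet groups lay on top of each other at each time. BD 3 minus CD 3 was 0.14 (SE 0.38, interval -0.65 to 0.93) and BD 14 minus CD 14 was -0.02 (SE 0.35, interval -0.74 to 0.70), with adjusted p = 0.965 and 0.998. CD 14 minus CD 3 was 0.60 (SE 0.36, unadjusted p = 0.115, adjusted p = 0.608), and BD 14 minus BD 3 was 0.44 (SE 0.36, adjusted p = 0.796). With slide as a block the diet difference in Slc2a2 was -0.44 (SE 0.41) after 3 months and 0.78 (SE 0.34, unadjusted p = 0.0371, adjusted p = 0.608) after 14 months, with the signs turned at both times. With that block the control-diet difference CD 14 minus CD 3 was 0.00 (SE 0.43) in Slc2a2, while BD 14 minus BD 3 kept its sign at 1.21 (SE 0.47, unadjusted p = 0.0189, adjusted p = 0.990), although no slide held both BD groups.

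Glycogen turnover is represented by Gys2 and Pygl, the enzymes that build and degrade liver glycogen. Gys2 was above the reference in all 5 arrays of CD 3 (0.35, 0.42, 0.41, 0.73 and 0.48) and on 3 of 5 in BD 3 (-0.10, -0.18, 0.44, 0.28 and 0.29). It ran from -0.02 over 0.42 to 0.80 in CD 14 and from -0.30 over 0.37 to 0.53 in BD 14. BD 3 had the lowest mean of Gys2, and its arrays lay inside the range of BD 14. BD 3 minus CD 3 was -0.34 (SE 0.19, interval -0.74 to 0.07, unadjusted p = 0.0991, adjusted p = 0.780) and BD 14 minus CD 14 was -0.12 (SE 0.18, interval -0.49 to 0.25, adjusted p = 0.958).

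Pygl had log2 ratios of 0.29, 0.17, 0.71, 0.79 and 0.57 in CD 3 and of -0.06, 0.36, 0.25, 0.06 and -0.01 in BD 3. In CD 14 it ran from -0.24 over 0.25 to 0.85, and in BD 14 from -0.25 over 0.05 to 0.16. At each time every BASE-diet array lay below the mean of its controls, 5 of 5 and 6 of 6, although the ranges overlapped. BD 3 minus CD 3 was -0.39 (SE 0.18, interval -0.77 to -0.01), a 1.31-fold difference (unadjusted p = 0.0468, adjusted p = 0.689). BD 14 minus CD 14 was -0.28 (SE 0.17, interval -0.63 to 0.06, unadjusted p = 0.106, adjusted p = 0.952). The differences in Pygl became -0.05 (SE 0.25) and -0.02 (SE 0.21) with slide as a block, and the 14-month value was 0.23 in the Cy5 channel alone. The unadjusted p of the 3-month difference was under 0.05 in 7 of the 22 fits that each left out 1 array.

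**Figure D3:**
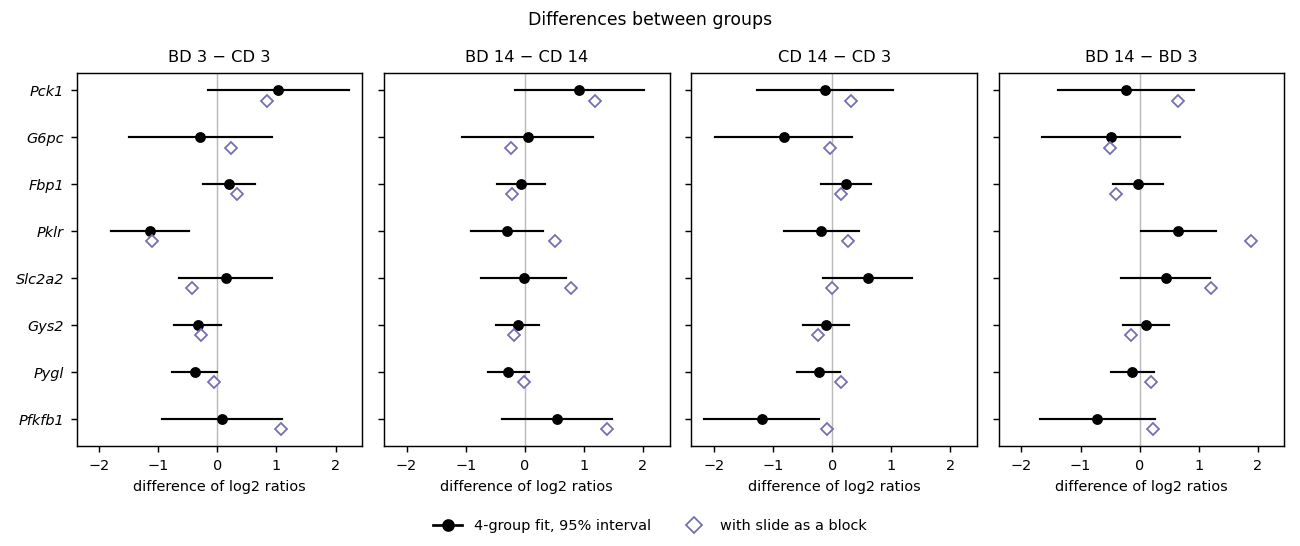
Difference of log2 ratios with its 95% interval from the fit of the 4 group means (black points and lines) and the difference with slide as a block (open diamonds), for the 8 tested genes in 4 comparisons named above each panel. The interval excludes 0 for Pklr (-1.81 to -0.48) and Pygl in BD 3 minus CD 3, for Pfkfb1 in CD 14 minus CD 3 and for Pklr in BD 14 minus BD 3, before any adjustment for the number of probes tested.

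The log2 ratios of Pck1, G6pc and Pfkfb1 spread more within groups than those of Fbp1, Gys2 and Pygl. This spread includes that of the reference channel. In the log2 Cy5 signal, not scaled between arrays, the SDs in CD 3 were closer, at 0.96, 0.82 and 0.79 beside 0.67, 0.66 and 0.76. The SD of the log2 ratio within groups ran from 0.55 to 1.60 in Pck1, from 0.68 to 1.25 in G6pc and from 0.62 to 0.98 in Pfkfb1, and from 0.15 to 0.35 in Pygl. Of the 28 pairs of the 8 genes, Pck1 and G6pc had the highest correlation of deviations from the group means (r = 0.59, rho = 0.66, 22 arrays, r = 0.47 without the 2 arrays farthest from the median in Pck1), and 1006 of 11127 genes were closer to Pck1 than G6pc was. Pck1 and Pygl had the lowest (r = -0.50, rho = -0.54, r = -0.32 without the 2 farthest arrays), and with the slide removed as well their r was -0.69. Neither pair kept its place without the 2 farthest arrays, where Pklr and Pygl had a higher r (0.51) and G6pc and Slc2a2 a lower one (-0.54). For Pck1 and Pklr r was -0.33, -0.15 without the 2 farthest arrays and -0.61 with the slide removed. The points of a correlation share arrays, reference RNA and slides, and these values are descriptions only.

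The genes most like a member in these deviations were named by the highest r among 11127 genes. They were Phyh (r = 0.92), Lonp2 (0.88) and Cyp8b1 (0.88) for Pck1, of which Phyh and Lonp2 encode peroxisomal proteins and Cyp8b1 an enzyme of bile acid synthesis. For Pklr they were Bche (0.77), Fasn (0.74), which encodes fatty acid synthase, and Aldh1b1 (0.74). For G6pc they were a probe named Oprm1 (0.98), Hfe2 (0.83) and Ldha (0.82), the last a lactate dehydrogenase subunit. What the probe named for the opioid receptor gene Oprm1 detects was not tested. Pfkfb1 had Cdc37 (0.78), Rpl18 (0.76) and Tpi1 (0.75), Pygl had Fam160a2 (0.86), Cryl1 (0.79) and Mrps7 (0.79), and Gys2 had Kif11 (0.82), Slc25a42 (0.81) and Pex11a (0.80). For Fbp1 they were Eif3e (0.83), Actr2 (0.81) and Psmd14 (0.80), and for Slc2a2 Ranbp1 (0.79), Mccc2 (0.77) and Hdgf (0.77).

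The wider pathway was described by lists of other genes. No gene of any list had an adjusted p under 0.05 in any of the 4 comparisons or the interaction. Of 18 genes of gluconeogenesis and glucose release other than the members, 17 were higher in BD 14 than in CD 14 (median difference 0.26, all probes tested 0.05), where 56.3% of all probes were higher. Of the 8 members tested, 3 were higher and 5 lower there. All BD 14 arrays but only 2 of CD 14 were on slide C, so the count does not separate diet from slide. Of the 18, 1 was higher at an unadjusted p under 0.05, near the 3.79% of all probes that were. After 3 months 7 were higher and 11 lower in BD 3 (median -0.10, all probes 0.03). The gene named for 14 months was G6pc3, a widely expressed glucose 6-phosphatase, with a difference of 0.49 (SE 0.23, adjusted p = 0.952, 0.30 with slide as a block, -0.02 in the Cy5 channel alone). The gene named for 3 months was Sds, serine dehydratase, which turns serine into pyruvate for gluconeogenesis, with -2.19 ± 1.42 (SD) in CD 3 and 0.56 ± 2.52 in BD 3, a difference of 2.75 (SE 1.14, unadjusted p = 0.0249, adjusted p = 0.625, 3.90 with slide as a block). With time, Gpt, an alanine aminotransferase, was 1.10 ± 0.55 in CD 3 and -0.20 ± 0.35 in CD 14, without overlap, a difference of -1.30 (SE 0.35, unadjusted p = 0.00125, adjusted p = 0.201) that was -0.31 with slide as a block. Of all probes 0.232% were lower without overlap in that comparison. Slc37a4, the transporter that brings glucose 6-phosphate to G6pc, differed by -0.43 in CD 14 minus CD 3 (adjusted p = 0.428, -0.12 with slide as a block).

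Of 27 tested genes of glycolysis and glucose uptake, 15 were higher in BD 3 and 15 in BD 14 than in their controls, with medians of 0.03 and 0.03. Pfkfb2, a relative of Pfkfb1, was higher in BD 3 than in CD 3 (0.91, SE 0.40, adjusted p = 0.671) and in CD 14 than in CD 3 (1.02, SE 0.39, adjusted p = 0.376), both against the same 5 controls. Its direction in BD 3 turned in the Cy5 channel alone (-0.61), and its CD 14 minus CD 3 value was 0.17 with normexp background correction and loess. Gckr, a gene of the same list, differed by -0.50 in BD 3 minus CD 3 and by -0.55 in CD 14 minus CD 3 (adjusted p = 0.673 and 0.384), and with slide as a block both signs turned (0.24 and 0.17). Slc2a9, a urate and hexose transporter, was higher in BD 14 than in CD 14 (0.89, SE 0.41, adjusted p = 0.952, 0.33 with normexp background correction and loess).

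Among 20 tested genes of glycogen turnover, 10 were higher in BD 3 and 12 in BD 14 than in their controls. Ugp2, which makes the UDP-glucose that Gys2 uses, was 0.70 ± 0.17 (SD) in CD 3 and 0.01 ± 0.62 in BD 3, a difference of -0.69 (SE 0.29, unadjusted p = 0.0245, adjusted p = 0.622, -1.01 with slide as a block). Ppp1r3b, a subunit that brings protein phosphatase 1 to glycogen, differed by 1.17 in the same comparison (SE 0.55, adjusted p = 0.684, 0.42 with normexp background correction and loess, 0.73 without CD 3 replicate 4). Over time in the controls, Pygb (1.09) and Pgm2 (0.83) had higher and Ugp2 (-0.62) lower means in CD 14 than in CD 3, with adjusted p = 0.404, 0.426 and 0.450. These became 0.37, 0.69 and -1.25 with slide as a block, Pygb was 0.26 with normexp background correction and loess, and Pgm2 was 0.37 in the Cy5 channel alone. Of 12 genes of the pyruvate dehydrogenase switch, 6 were higher in BD 3 and 8 in BD 14 than in controls, and Dld did not overlap between BD 14 and BD 3 (0.46, SE 0.20, adjusted p = 0.638, 0.14 with slide as a block, although no slide held both BD groups). Of all probes 1.18% were higher without overlap there.

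Of 33 genes of hormone and transcriptional control, 24 were higher in BD 3 (median 0.16, all probes 0.03) and 17 in BD 14 (median 0.05, all probes 0.05) than in controls. Hnf4a, a nuclear receptor that defines the hepatocyte programme and binds the gluconeogenic promoters, was 0.42 ± 0.24 (SD) in BD 14 and -0.35 ± 0.48 in CD 14, a difference of 0.77 (SE 0.29, unadjusted p = 0.0145, adjusted p = 0.952, 0.37 with slide as a block). Nr0b2, which encodes the repressor SHP, differed by 1.05 (SE 0.43, unadjusted p = 0.0233, adjusted p = 0.952, 1.02 with slide as a block) in the same comparison. Ppargc1b, a relative of Ppargc1a, differed by 0.97 in BD 3 minus CD 3 (adjusted p = 0.690, 0.28 with slide as a block). Adra1b, which encodes an adrenergic receptor of the hepatocyte, differed by -0.46 in BD 14 minus BD 3 (adjusted p = 0.559), and with slide as a block by 0.01, although no slide held both BD groups.

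Clock genes are given because Pck1 and G6pc follow the time of day and of feeding in liver. Of 15 tested, 11 were higher in BD 3 than in CD 3 (median 0.25) and 8 in BD 14 than in CD 14 (median 0.02), with 0 at an unadjusted p under 0.05 in both. Between times Nr1d2, which encodes the clock repressor REV-ERBbeta, was -1.61 ± 0.65 (SD) in BD 3 and -0.33 ± 0.49 in BD 14, without overlap, a difference of 1.28 (SE 0.40, unadjusted p = 0.00421, adjusted p = 0.411, 2.24 with slide as a block, 0.49 with normexp background correction and loess). No slide held both BD groups, so this block value is indirect. In that comparison 2 of the 15 were higher and 1 lower at an unadjusted p under 0.05 (4.76% and 2.68% of all probes). Of all probes 1.18% were higher without overlap. Nr1d1 differed by 0.87 in BD 14 minus BD 3 and by 0.70 in CD 14 minus CD 3, and Cry1, a repressor of the other arm, by -1.31 and -1.22 (adjusted p = 0.514, 0.465, 0.608 and 0.465), although the sign of Cry1 in CD 14 minus CD 3 turned with slide as a block (0.62). Without CD 3 replicate 4 the CD 14 minus CD 3 value of Nr1d1 was 0.35. The part of the hour of sampling in the values of Pck1, G6pc and Pfkfb1 between 3 and 14 months was not tested.

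**Figure D4:**
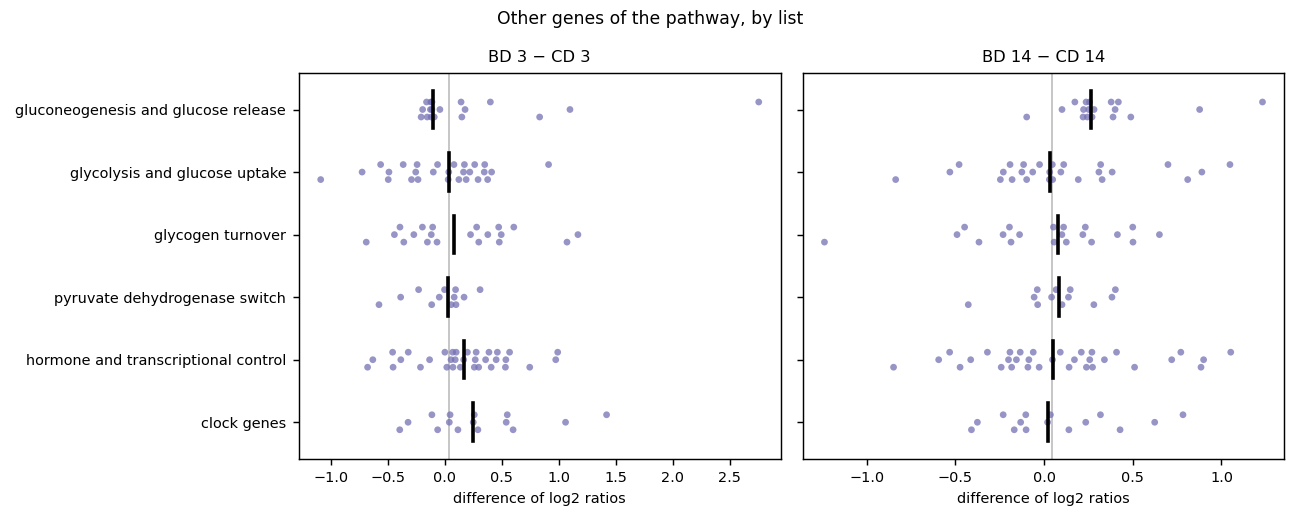
Differences of log2 ratios for single genes (points) of 6 lists of other pathway genes, in BD 3 minus CD 3 (left) and BD 14 minus CD 14 (right), with a black bar at the median of each list and a grey line at the median of all probes tested. In the right panel 17 of the 18 genes of gluconeogenesis and glucose release lie above 0 (median 0.26), while in the left panel 7 of 18 do and Sds lies farthest to the right at 2.75. All BD 14 arrays but only 2 of CD 14 were on slide C.

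Markers of other cells are given for the values above. Of 13 leukocyte markers tested, 8 were higher in BD 3 than in CD 3 and 1 in BD 14 than in CD 14 (median differences 0.23 and -0.12, 0 at an unadjusted p under 0.05), and 11 were higher in CD 14 than in CD 3 (median difference 0.77, all probes 0.03, 4 at an unadjusted p under 0.05, where 6.85% of all probes were higher), with a list mean from -1.76 to 0.04 in CD 3 and from -0.68 to 0.63 in CD 14. In BD 14 against BD 3 11 of the 13 were higher as well (median 0.33, all probes 0.07, 0 at that threshold), beside the differences of Pklr, Dld and Nr1d2 there. These values, and those of the hepatocyte markers that follow, stand beside the differences of Pfkfb1, Gpt and Pygb in CD 14 minus CD 3, and their part in them was not tested. Hepatocyte markers differed by a median of 0.17 in BD 3 minus CD 3 and of -0.07 in BD 14 minus CD 14, and in CD 14 against CD 3 11 of the 14 were higher (median 0.25, all probes 0.03, 2 at an unadjusted p under 0.05). Their mean log2 ratio was widest in CD 3, from -1.20 to 0.51, the group that was also widest in Pck1. Kidney markers, listed because the kidney also makes glucose, were lower in CD 14 than in CD 3 in 4 of 4 tested (median -0.35), and 3 of 8 on the array were well above background on all 22 arrays. Stellate, endothelial, bile duct, adipose and muscle, and pancreas markers (9, 6, 4, 3 and 4 tested) had at most 1 gene of a list at an unadjusted p under 0.05 in any comparison. Of the 3 adipose and muscle markers, 1 was higher at that threshold in BD 3 than in CD 3 and 1 in BD 14 than in CD 14. The shares of all probes were 4.99% and 3.79%. Of the stellate markers 1 was higher in BD 3 than in CD 3. Of the endothelial markers 1 was higher in CD 14 than in CD 3 (6.85% of all probes).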

How the data were processed

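Liver RNA of 22 rats was hybridised to 2-colour arrays against a common reference, with the rat in Cy5 and the reference in Cy3 per the labels, and no dyes were swapped. The methods text describes the channels as control and BASE-diet rats, and the labels were followed. The deposited files hold, for each spot, processed and raw intensity values and their log10 ratio, which the authors made with Agilent Feature Extraction (10.7.3.1 per the labels, 10.10.1.1 per the file headers), subtracting background and normalising dyes within each array on build rn4. The authors' table of the whole series was not used.

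The log10 ratios were turned into log2, non-uniform spots (at most 2607 per array) left out, and spots of a probe averaged, with no scaling between arrays. Testing required that, in some group, each array had a share of 0.5 or more of the probe's Cy5 spots passing the scanner software's test of signal over background (19434 of 30367 probes, 698 of them lacking a value on some array). The brightest probe stood for a gene. Group means were fitted to all 22 arrays with limma 3.58.1 in R 4.3.3 (moderated test, two-sided, Benjamini-Hochberg over all probes tested), after a test on simulated data. Printed p-values are from limma's moderated test, and the counts given for the methods' own test are from one-way analysis of variance with Tukey's test. The number of arrays limits the precision, and 0 spots of the genes were saturated. Slide, replicate number, background correction, Cy5 alone, centring, filters, weights, probe choice, the methods' own test and leaving out arrays were the alternatives. The genes named beside the 9 were, per list and comparison, up to 3 with the smallest unadjusted p under 0.05, and for likeness the 3 with the highest r. The 9 genes and the lists were chosen with earlier results of these data known. Replicate numbers did not pair rats: of 31 same-numbered pairs 8 had r over 0.1 (-0.27 to 0.29). Of the genes that this rule picks from the lists, some are not reported here.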

Additional observations from a re-analysis of the deposited data

Results flagged for a closer look

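G6pc in BD 14 replicate 2 stood apart from its group, with a log2 ratio of -3.70 where the other 5 arrays lay between -1.25 and -0.01. The gap to its nearest neighbour was 0.665 of the range of the group, above Dixon's critical value of 0.625 for a group of 6. Of 36 groups of the 9 genes tested in this way 1 was picked out, and chance picks out about 1 in 20 groups. Its cause was not tested.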

How the results depend on the processing

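With adjusted p, the count of genes called was 0 of 8 in each of the 4 comparisons, the interaction and the F test under every alternative run. The counts at an unadjusted p under 0.05 moved, and the cause was not tested. With slide as a block they were 1 for BD 3 against CD 3 (Pklr), 2 for BD 14 against CD 14 (Slc2a2 and Pfkfb1), 0 for CD 14 against CD 3, 2 for BD 14 against BD 3 and 2 for the interaction (Pklr and Slc2a2 in both), where 11%, 7.8%, 6.01%, 4.64% and 11.1% of all probes passed. With the rat number as a replicate block the count was 1 for BD 3 against CD 3 (6.9% of all probes), and the values were -1.14 for Pklr there, -1.37 for Pfkfb1 in CD 14 against CD 3 and 0.63 for Pklr in BD 14 against BD 3. Without the brightest arrays, an alternative chosen after seeing the data, counts were 1 for BD 3 against CD 3, 0 for BD 14 against BD 3 and 1 for the interaction (8.77%, 6.76% and 4.2% of all probes). With only the 2 groups compared they were 1 for BD 3 against CD 3 and 1 for BD 14 against CD 14 (4.09% and 10.1% of all probes), and with the methods' own test 1 for BD 3 against CD 3, 0 for CD 14 against CD 3 and 0 for BD 14 against BD 3. Weighted arrays gave 2 for BD 14 against CD 14 (Pck1 and Pygl) and 1 for the F test (11.1% and 5.35% of all probes). Slide C alone gave 4 for BD 14 against CD 14 (Pck1, Pklr, Slc2a2 and Pfkfb1, where 11.3% of all probes passed in that fit), the Cy5 channel alone 3 for BD 3 against CD 3 (Pck1 beside Pklr and Pygl), 2 for BD 14 against BD 3 and 2 for the interaction (15.2%, 12.5% and 9.28% of all probes), and centred arrays and leaving out the 2 arrays with most non-uniform spots 0 for BD 14 against BD 3 (7.47% and 8.62% of all probes). Leaving out 1 array at a time gave 1 to 3 for BD 3 against CD 3, 0 to 1 for BD 14 against CD 14, 1 to 2 for CD 14 against CD 3, 0 to 1 for BD 14 against BD 3, 0 to 1 for the interaction and 1 to 4 for the F test. No share of all probes is given for these fits or for the methods' own test, so their counts cannot be read against a background. A fit of only the groups compared was not run for the interaction and the F test, and a fit within 1 slide was run only for BD 14 against CD 14. Its differences are those of the slide block for that comparison, because all BD 14 arrays were on slide C, so these fits are not separate checks. Slide B, with 2 BD 3 arrays and 1 CD 3 array, was given as values and not fitted.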
